A study of Bos grunniens x Bos taurus and Bos grunniens with 6 samples.

Results

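The laminins, nidogens, agrin, the integrins and the adaptors that sit on integrin tails were followed in testis tissue of yak and of the sterile hybrid cattle-yak. The rule that picks them reads the gene symbol and no expression value, and takes every laminin α, β or γ chain, nidogen, perlecan or agrin, every integrin α or β subunit, the integrin-like ITGBL1, and the adaptors ILK, PARVA and FERMT1 to FERMT3. The rule found 45 of the 18918 genes in the table, each symbol once. Of these, 42 had a mean of at least 0.5 FPKM over the 6 animals and were compared, while LAMB3, ITGA2 and ITGB6 fell under that filter. HSPG2 (perlecan), ITGB1 (the β subunit shared by most laminin and collagen receptors) and FERMT3 matched no row and were not analysed here.

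Testis RNA was sequenced from 3 male cattle-yaks, named TES5, TES6 and TES7, and 3 male yaks, named Yak8, Yak9 and Yak10, with 1 library per animal. The yaks were of the Gannan breed, and the cattle-yaks were the first-generation offspring of Jersey bulls and Gannan yak cows. All were 4 years of age. The herds were kept in different counties, and by the study's methods the yak testes were taken after euthanasia and the cattle-yak testes by castration (the labels give castration for both), so place, collection and genotype cannot be told apart. Reads of both groups were mapped to the yak genome (LU_Bosgru_v3.0), so the cattle alleles of the hybrids were measured against yak gene models.

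Laminins are cross-shaped secreted trimers of an α, a β and a γ chain that polymerise into the core sheet of basement membranes, and nidogens and the heparan sulfate proteoglycans perlecan and agrin tie that sheet to collagen IV and to cells. Integrins are αβ receptors that span the cell membrane. The α subunit largely sets the ligand (laminin, collagen, RGD-containing proteins such as fibronectin and vitronectin, or counter-receptors on other cells), and ILK, parvins, kindlins and talin link the β tail to actin. In the testis, a basement membrane shared by Sertoli and peritubular myoid cells surrounds each seminiferous tubule, and a laminin made of LAMA3, LAMB3 and LAMC3 is known at the junction between Sertoli cells and elongating spermatids.

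The cattle-yak libraries held 11175100 to 11834987 fragments assigned to genes and the yak libraries 12991641 to 13136129. One fragment on a gene model of 1 kb was worth 0.0761 to 0.0895 FPKM, the number of fragments per kilobase of gene model scaled to a fixed library depth. Whole testis differed in its cell markers: 12 Sertoli genes summed to 1571 to 1771 FPKM in the hybrids against 254.0 to 343.1 FPKM in the yaks, and 7 myoid genes to 610.6 to 818.0 against 131.0 to 162.5. The 4 round spermatid genes measured summed to 8.60 to 42.2 FPKM in cattle-yak against 1670 to 2355 in yak, and the 6 elongating spermatid genes to 17.0 to 75.6 against 8371 to 10202. Tissue of this kind does not tell fewer cells of a type from less RNA per cell, for any gene below.

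Between the groups, 17 of the 42 genes rose in cattle-yak and 7 fell, by limma on log2(FPKM + 1). A gene counted as changed when its limma adjusted p lay under 0.05 and its log2 fold change passed 1 in either direction. That was 40.5% and 16.7% of the genes compared, beside 33.4% and 20.8% of all 15042 genes tested, so both shares lay close to the background. Its median log2 fold change was 0.82 and that of all tested genes 0.51. The 3 animals of each group did not overlap for 39 of the 42 genes (92.9%), against 84.1% of all tested genes. On this scale the fold change of genes with low FPKM is understated. With 0.1 added in place of 1 before the log, 24 of the 42 genes rose and 8 fell. LAMA4, ITGA3, ITGA7, ITGA1, ITGB4, ITGB7 and ITGB8 then passed the threshold upward and ITGA5 downward. The median of all tested genes was 0.62 at that setting, and the share of them called was not counted. Without Yak8, 4 genes fell in place of 7, where the share of all tested genes was not counted either. With median-of-ratios scaling, described below, 11 rose and 10 fell. By class, 6 of 11 laminin chains rose and 2 fell (median log2 fold change 1.49), and 5 of 17 integrin α subunits rose and 2 fell (median 0.57). The difference between these classes was not tested.

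The laminin α chains changed order between the groups. LAMA1, the α chain of the classic embryonic laminin and a part of the tubule basement membrane, was at 23.7, 41.7 and 26.6 FPKM in the 3 cattle-yaks and at 4.79, 5.07 and 5.16 FPKM in the yaks. LAMA3, the α chain of epithelial anchoring laminins, was at 3.54, 5.02 and 3.93 FPKM in cattle-yak and at 23.8, 15.1 and 23.9 FPKM in yak. Every hybrid was thus above every yak for LAMA1 and below every yak for LAMA3, with no overlap in either gene. LAMA1 rose by a log2 fold change of 2.36 (SE 0.20, limma adjusted p = 1.1e-05), and LAMA3 fell by 2.07 (SE 0.20, limma adjusted p = 2.5e-05). The LAMA1 level was 6.69 to 8.29 times that of LAMA3 in each cattle-yak and 0.201 to 0.336 times in each yak, a ratio within 1 library that no scaling between libraries can move. This pair, like the other ratios between 2 genes given here, was chosen after its values were seen.

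LAMA2, the α chain of muscle and peripheral nerve basement membranes, was at 8.89, 13.2 and 12.4 FPKM in cattle-yak and at 3.57, 2.42 and 4.36 FPKM in yak, and rose by a log2 fold change of 1.49 (limma adjusted p = 2.3e-04). LAMA4, of vessel and muscle basement membranes, stood at 4.77, 4.86 and 3.30 FPKM against 1.99, 1.64 and 1.76 FPKM. Its log2 difference of 0.91 stayed under the fold threshold although the groups did not overlap, and reached 1.06 without TES7. LAMA5, the widespread α chain of mature epithelia, was at 1.68, 1.92 and 1.38 FPKM in cattle-yak and 3.17, 2.99 and 2.25 FPKM in yak, a log2 difference of -0.51 that did not pass either.

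**Figure D1:**
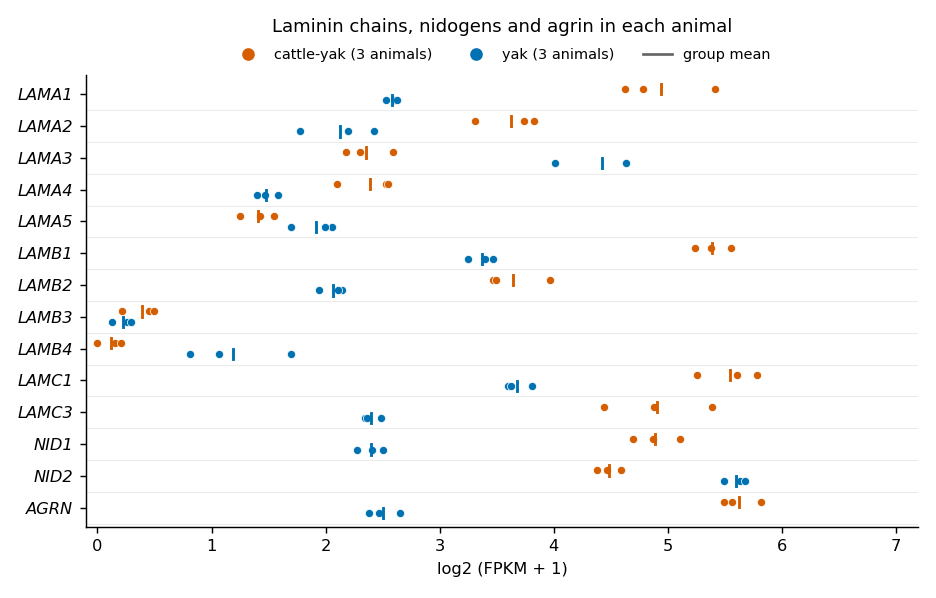
Levels of laminin chains, both nidogens and agrin as log2(FPKM + 1), with 1 point per animal (orange, 3 cattle-yaks; blue, 3 yaks) and a vertical bar at each group mean. LAMA1, LAMB1, LAMC1, LAMC3, NID1 and AGRN sit to the right in cattle-yak (AGRN 48.6 against 4.67 FPKM on average), while LAMA3 and NID2 sit to the right in yak (LAMA3 20.9 against 4.16 FPKM).

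Of the β chains, LAMB1, the partner of most α chains, was at 36.9, 46.0 and 40.6 FPKM in cattle-yak and at 10.04, 9.57 and 8.52 FPKM in yak. LAMB2, the β chain of muscle, synaptic and kidney laminins, was at 10.05, 14.7 and 10.3 FPKM against 3.42, 2.85 and 3.30 FPKM. Both rose, LAMB1 by a log2 fold change of 2.02 (SE 0.12, limma adjusted p = 1.9e-06) and LAMB2 by 1.58 (limma adjusted p = 4.6e-05). LAMB4, a little-studied β chain, went the other way, with 4, 5 and 0 fragments in the cattle-yaks and 87, 29 and 42 in the yaks (0.115, 0.152 and 0 against 2.24, 0.75 and 1.10 FPKM). It fell by 1.07 on the log2 scale (limma adjusted p = 3.1e-03), and per fragment its ratio was 15.5 (95% interval 7.95 to 34.5, counting error only). Yak8 carried the highest LAMB4 level, and without Yak8 the gene fell under the filter and was not tested. LAMB3, the β chain of the LAMA3 laminins, held 22, 9 and 24 fragments in cattle-yak and 6, 13 and 15 in yak, and was under the filter in the full set.

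LAMC1, the γ chain of most laminins, was at 47.9, 54.0 and 37.2 FPKM in cattle-yak and 11.1, 11.4 and 13 FPKM in yak. LAMC3, the γ chain reported at the Sertoli cell to spermatid junction, was at 20.8, 41 and 28.5 FPKM against 4.07, 4.61 and 4.16 FPKM. They rose by log2 fold changes of 1.87 (limma adjusted p = 8.3e-06) and 2.51 (SE 0.22, limma adjusted p = 1.4e-05). Per library, LAMC3 therefore moved opposite to LAMA3, with which it forms the junction laminin. The third chain of that laminin, LAMB3, was under the filter, at 0.159 to 0.409 FPKM in cattle-yak and 0.0903 to 0.228 FPKM in yak. Relative to the Sertoli genes described below, LAMC3 lay at 0.25 (limma adjusted p = 0.29) and LAMA3 at -4.33.

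Because FPKM is per length, the chains of a class can be set against each other within a library. LAMA1 made up 58.0% ± 3.89 (SD, n = 3) of the summed α chain FPKM in cattle-yak and 15.1% ± 3.11 in yak, and LAMA3 made up 8.04% ± 0.432 and 61.0% ± 4.79. LAMA2 held 22.2% against 10.03%, and LAMA5 3.25% against 8.48%. None of these shares overlapped between the groups. Among the γ chains, LAMC3 held 38.6% ± 7.52 in cattle-yak and 24.6% ± 2.69 in yak, while LAMC1 (60.6% against 67.9%) overlapped. LAMB1 led the β chains in both groups, at 77.5% ± 1.86 and 66.7% ± 4.33, and LAMB2 held 21.8% and 22.7%. The groups did not overlap for 23 of the 39 shares computed over laminins, integrins and kindlins. With 3 animals against 3 the two-sided exact permutation test cannot go below p = 0.1 (0.17 after adjustment over the 39), so no single share can pass.

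**Figure D2:**
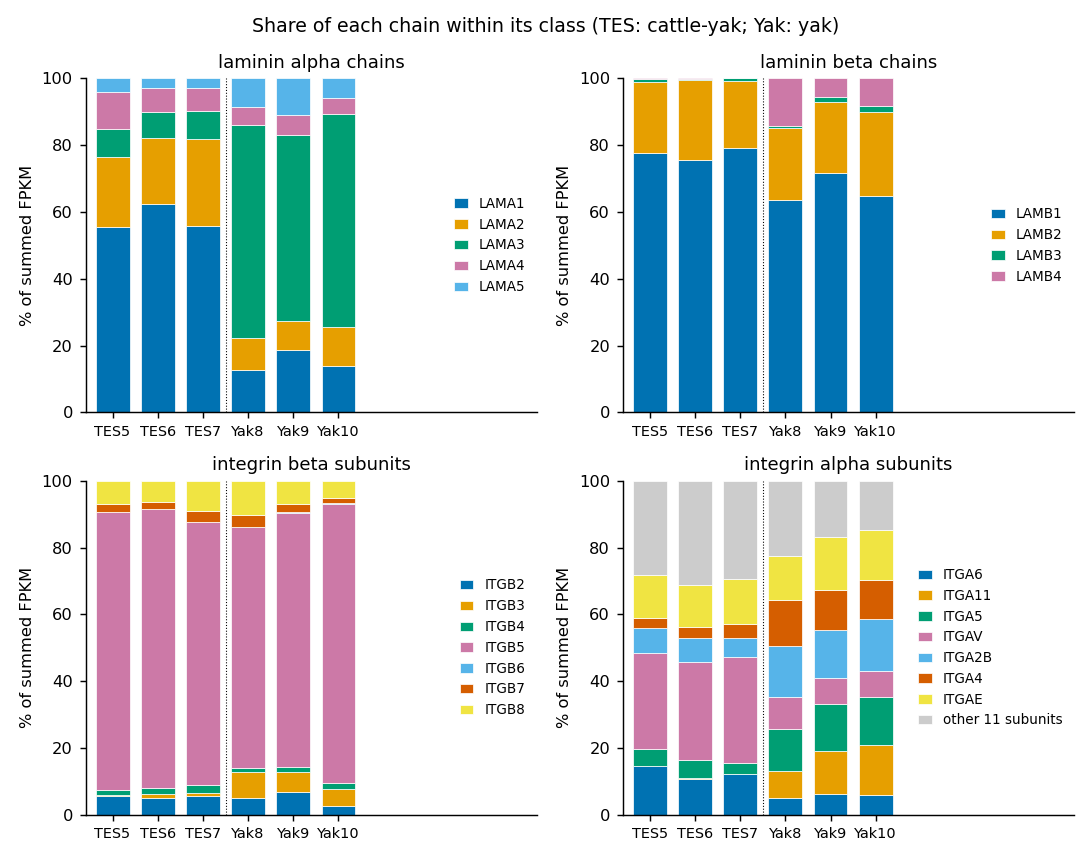
Share of each chain in the summed FPKM of its class, in percent, as stacked bars with 1 bar per animal (TES5 to TES7, cattle-yak; Yak8 to Yak10, yak), for laminin α and β chains, integrin β subunits and those integrin α subunits above 10% in either group. LAMA3 fills 55.5% to 63.8% of the α bars in yak and 7.54% to 8.32% in cattle-yak, and ITGAV 7.56% to 9.63% and 28.7% to 31.8% of the integrin α bars. The integrin β bars leave out ITGB1, which matched no row.

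The sums differed less for α chains than for β and γ chains. Laminin α chains summed to 42.6, 66.6 and 47.6 FPKM in cattle-yak and 37.3, 27.2 and 37.4 FPKM in yak. The β chains summed to 53.2 ± 6.99 FPKM (SD, n = 3) against 14.1 ± 1.47, and the γ chains to 77.1 ± 16.0 against 17.4 ± 0.756. The ratio of summed α to summed γ chains was 0.613, 0.698 and 0.718 in the cattle-yaks and 2.13, 1.64 and 2.07 in the yaks. The α to γ ratio was below 1 in each hybrid and above 1 in each yak (exact permutation test, two-sided, p = 0.1, the smallest possible). The β to γ ratio overlapped between the groups (0.698 ± 0.0690 against 0.810 ± 0.0873, exact permutation p = 0.2).

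The nidogens, which bridge the laminin γ1 chain to collagen IV, went in opposite directions. NID1 was at 25, 33.5 and 28.3 FPKM in cattle-yak and at 4.32, 3.86 and 4.68 FPKM in yak, and rose by a log2 fold change of 2.49 (SE 0.14, limma adjusted p = 1.4e-06). NID2 was at 19.9, 23.1 and 21.2 FPKM against 48.7, 44.2 and 50.2 FPKM, and fell by 1.12 on the log2 scale (SE 0.10, limma adjusted p = 1.9e-05). Within a library the NID1 level was 1.26 to 1.45 times that of NID2 in cattle-yak and 0.0873 to 0.0934 times in yak. The NID2 gene model spans only 663 bases, against 4668 for NID1, so NID2 reads report a small stretch of that gene and their level may not stand for the whole transcript.

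AGRN encodes agrin, a heparan sulfate proteoglycan that binds laminin and the dystroglycan receptor. It was at 44.2, 55.3 and 46.3 FPKM in the cattle-yaks and at 5.28, 4.22 and 4.53 FPKM in the yaks, a 10.4-fold difference of the means. Its log2 fold change of 3.12 (SE 0.13, limma adjusted p = 3.9e-07) was the highest of the 42 genes. LAMC3, NID1 and LAMA1 followed it.

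Among the laminin-binding integrin α subunits, ITGA6, the laminin receptor of epithelia and of spermatogonial stem cells, was at 17.6, 14.7 and 15.5 FPKM in cattle-yak and 4.48, 5.25 and 4.96 FPKM in yak. It rose by a log2 fold change of 1.52 (SE 0.13, limma adjusted p = 1.1e-05). ITGA3, another epithelial laminin receptor, was at 3.73, 4.28 and 4.10 FPKM against 1.89, 1.14 and 1.85 FPKM. ITGA7, the muscle laminin receptor, was at 1.95, 2.15 and 1.18 FPKM against 0.696, 0.785 and 0.901 FPKM. The groups did not overlap for either, but the log2 differences of 0.95 and 0.61 did not pass the fold threshold. For ITGA3 it was 1.03 without Yak8 and 1.02 without Yak10. With 0.1 added in place of 1 before the log, ITGA3 (1.29) and ITGA7 (1.02) were both called higher.

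The widest change among the 42 genes was in a collagen receptor. ITGA11, which binds fibrillar collagen on fibroblasts, held 8, 3 and 2 fragments in the 3 cattle-yaks and 471, 737 and 851 in the yaks, or 0.132, 0.0522 and 0.0336 against 6.98, 10.9 and 12.7 FPKM. It fell by 3.35 on the log2 scale (SE 0.22, limma adjusted p = 2.4e-06), and the ratio of fragments per depth was 140 in favour of yak (95% interval 81.5 to 263, counting error only). ITGA11 went from 12.1% ± 3.67 of all integrin α FPKM in yak to 0.0578% ± 0.0442 in cattle-yak, in the same direction as the spermatid markers, whose summed level in cattle-yak was 1.29% (round) and 0.438% (elongating) of that in yak. The part of spermatid number in the ITGA11 level was not tested. The other collagen receptors did not pass the test. ITGA1 was at 3.96, 5.62 and 4.72 FPKM in cattle-yak and 2.72, 1.94 and 1.38 in yak (log2 difference 0.95, and 1.06 without TES5 and 1.12 without Yak8), and ITGA10 at 0.955, 2.53 and 1.27 against 0.624, 0.647 and 0.805 FPKM (log2 difference 0.57). ITGA2, under the filter, held 35, 28 and 37 fragments against 35, 7 and 22.

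The RGD receptors exchanged rank. ITGAV, the vitronectin and latent TGF-β receptor subunit, was at 34.9, 40.1 and 40.3 FPKM in cattle-yak and at 8.4, 6.37 and 6.61 FPKM in yak, and rose by a log2 fold change of 2.28 (SE 0.13, limma adjusted p = 1.6e-06). ITGA5, the classical fibronectin receptor subunit, was at 6.30, 7.30 and 4.09 FPKM against 11, 11.8 and 12 FPKM. Its log2 difference of -0.90 lay just inside the threshold and reached -1.05 without TES6. ITGAV stood at 5.49 to 9.86 times ITGA5 in the hybrids and at 0.539 to 0.767 times in the yaks. In yak, ITGA2B (15% ± 0.525 of the α subunit FPKM), ITGAE (14.8% ± 1.28), ITGA5 (13.6% ± 0.918), ITGA4 (12.5% ± 1.11) and ITGA11 (12.1%) held the largest shares of the α subunits, and each of these overlapped the next. In cattle-yak, ITGAV alone held 30.0% ± 1.56, followed by ITGAE (13%) and ITGA6 (12.5%), which overlapped.

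ITGA8, a subunit for nephronectin and fibronectin on smooth muscle and mesenchyme, was at 7.85, 7.5 and 7.85 FPKM in cattle-yak and at 3.61, 0.695 and 0.561 FPKM in yak. It rose by a log2 fold change of 1.92 (SE 0.38, limma adjusted p = 1.5e-03). Yak8 stood well above the other yaks, and the gene model was only 549 bases long. The yaks held 26, 5 and 4 fragments, so the log2 fold change of 2.42 without Yak8 rests on few yak fragments. ITGA2B, the fibrinogen receptor subunit of platelets, was at 8.84, 9.59 and 7.33 FPKM against 13.2, 12.2 and 13 FPKM, a log2 difference of -0.53 that did not pass. The only platelet marker with a row, PF4, was at 0 to 0.0869 FPKM in the hybrids against 0 to 0.148 FPKM, and the part of platelets in the ITGA2B level was not tested.

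Of the subunits outside these classes, ITGA4, which binds VCAM1 and fibronectin, was at 3.78, 4.56 and 5.36 FPKM in cattle-yak and 12, 10.2 and 9.80 FPKM in yak. ITGA9, a tenascin receptor subunit, was at 9.80, 10.7 and 9.79 FPKM against 3.64, 3.8 and 2.90 FPKM. ITGA4 fell by 1.07 on the log2 scale (limma adjusted p = 2.6e-04) and ITGA9 rose by 1.33 (limma adjusted p = 3.9e-05), 2 members of the same small subfamily, while relative to the Sertoli genes described below both lay under 0 (-3.33 and -0.93). The ITGA4 call was lost without TES5 (-0.97) and without Yak8 (-0.99).

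Among the leukocyte α subunits 1 of 5 rose. ITGAD, found on macrophages, was at 2.03, 3.04 and 2.31 FPKM in cattle-yak and at 0.329, 0.293 and 0.407 FPKM in yak, a log2 fold change of 1.36 (limma adjusted p = 9.1e-05). ITGAE, which pairs with ITGB7 on intraepithelial lymphocytes, was the most abundant of them, at 15.8, 16.8 and 17.1 FPKM against 11.6, 13.3 and 12.7 FPKM. Its log2 difference was 0.38, and -0.20 under median-of-ratios scaling, so it has no settled direction. ITGAL was at 2.03, 3.84 and 3.53 FPKM against 4.42, 3.78 and 2.60 FPKM, with a log2 difference of -0.16, and 0.05 without TES5. Both further subunits, of macrophages and dendritic cells, were low and did not pass. ITGAM was at 0.802, 1.10 and 1.01 FPKM in cattle-yak and 0.627, 0.629 and 0.423 FPKM in yak, with no overlap. ITGAX was at 0.454, 1.17 and 0.854 FPKM against 0.560, 0.324 and 0.174 FPKM, and the groups overlapped. Of 7 macrophage markers 5 rose and 1, AIF1, fell (median log2 fold change 1.38), with a summed level of 126.3 to 183.3 FPKM in the hybrids against 84.8 to 119.6 FPKM. Of 5 T and NK cell markers tested 2 rose (summed 20.3 to 37.0 against 11.2 to 211.5 FPKM), where the high yak sum was that of Yak8 and came from CD247, at 194.0 FPKM there and at 2.48 to 7.2 FPKM in the other animals. Their part in the levels of these subunits was not tested.

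**Figure D3:**
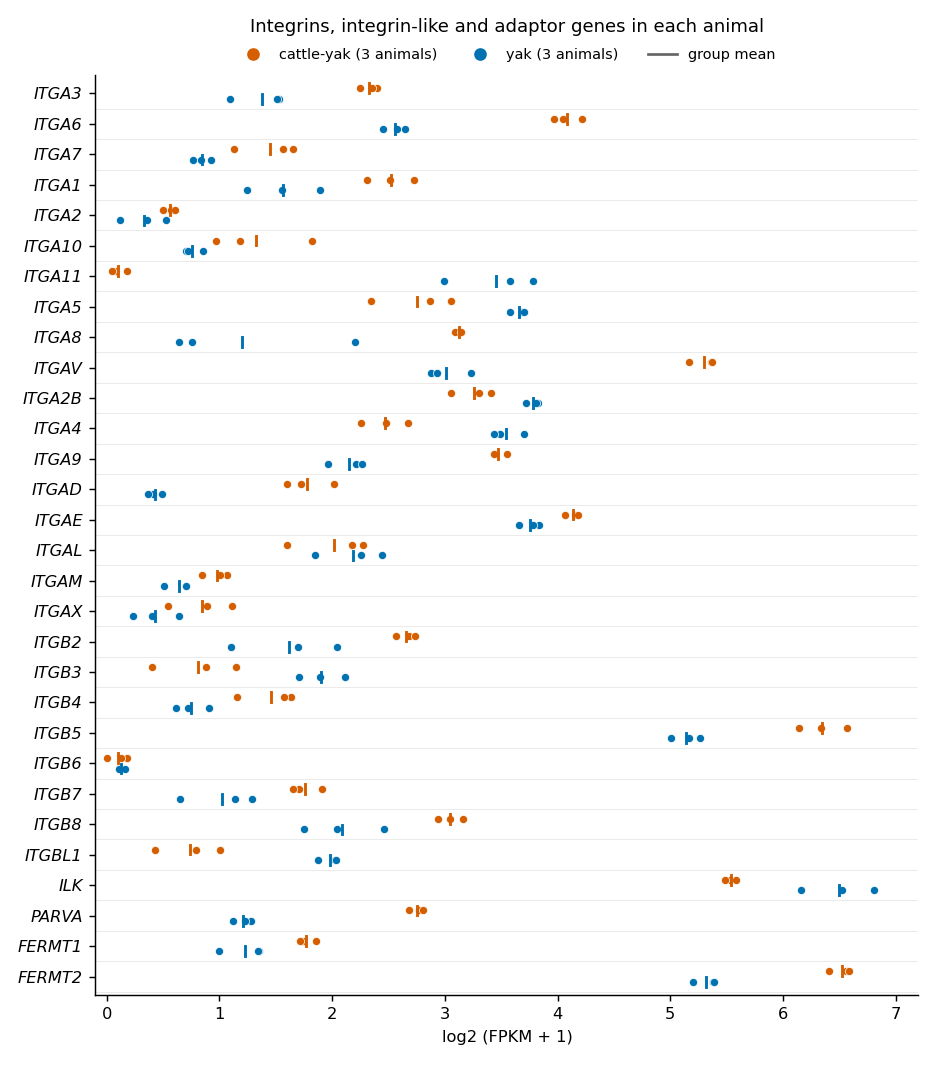
Level of each integrin α and β subunit, ITGBL1 and the integrin adaptors as log2(FPKM + 1), with 1 point per animal (orange, 3 cattle-yaks; blue, 3 yaks) and a vertical bar at each group mean. ITGA11, ITGA4, ITGB3 and ITGBL1 lie to the right in yak (ITGA11 10.2 against 0.0724 FPKM), and ITGAV, ITGB5 and FERMT2 lie to the right in cattle-yak (ITGAV 38.4 against 7.13 FPKM).

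ITGB5, the β subunit that pairs with ITGAV in the vitronectin receptor, was by far the most abundant β subunit measured, at 79.7, 93.6 and 69.5 FPKM in cattle-yak and 31.2, 34.8 and 37.3 FPKM in yak. It rose by a log2 fold change of 1.20 (SE 0.13, limma adjusted p = 4.5e-05). Its share of the FPKM of the measured β subunits, which leave out ITGB1, was 81.9% ± 2.53 and 77.2% ± 5.86 and overlapped between the groups. ITGB3, the β subunit of platelet and osteoclast receptors that can also pair with ITGAV, was at 0.323, 1.22 and 0.842 FPKM against 3.33, 2.72 and 2.26 FPKM. It fell by 1.09 on the log2 scale (limma adjusted p = 1.9e-03), a call lost without TES5 (-0.89) and without Yak8 (-0.99). So the 2 partners of ITGAV that passed the test moved in opposite directions per library, although relative to the Sertoli genes described below both lay under 0 (ITGB5 -1.06, ITGB3 -3.35).

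ITGB2, the β subunit of leukocyte integrins, was at 5.42, 5.65 and 4.91 FPKM in cattle-yak and at 2.24, 3.13 and 1.14 FPKM in yak. It rose by a log2 fold change of 1.05 (limma adjusted p = 3.4e-03), which was 0.79 and no longer called without Yak10. ITGB8, a further ITGAV partner that activates TGF-β, was at 6.66, 7.27 and 7.96 FPKM against 4.49, 3.13 and 2.36 FPKM. Its log2 difference of 0.97 stayed under the threshold, and was 1.02 without TES5 and 1.15 without Yak8. ITGB4, the hemidesmosome subunit that pairs with ITGA6, was at 1.23, 2.10 and 1.97 FPKM against 0.534, 0.648 and 0.881 FPKM (log2 difference 0.70). ITGB7, a lymphocyte subunit, was at 2.26, 2.14 and 2.76 FPKM against 1.44, 1.20 and 0.566 FPKM (log2 difference 0.73). Neither passed, although the groups did not overlap for either. With 0.1 added in place of 1 before the log, the differences were 1.24 for ITGB4 and 1.17 for ITGB7, and both were called higher. ITGB6, the epithelial TGF-β activating subunit, held 6, 4 and 0 fragments in cattle-yak and 4, 4 and 6 in yak, too few to compare. ITGBL1, a secreted protein with integrin-like repeats and no receptor domain, was at 1.01, 0.343 and 0.735 FPKM against 3.08, 2.67 and 3.08 FPKM, and fell by 1.24 on the log2 scale (limma adjusted p = 3.2e-04).

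On the inner side of the membrane, ILK, PARVA and a LIMS protein form a stable complex that joins the integrin tail to actin. ILK was at 45.3, 46.9 and 43.9 FPKM in cattle-yak and 90.8, 111.0 and 70.3 FPKM in yak. PARVA was at 5.81, 5.42 and 5.97 FPKM against 1.42, 1.34 and 1.17 FPKM. PARVA rose by a log2 fold change of 1.54 (SE 0.14, limma adjusted p = 1.5e-05), while the ILK difference of -0.96 did not pass and reached -1.13 without Yak10. The ILK level was 7.34 to 8.67 times that of PARVA in the hybrids and 60.1 to 82.9 times in the yaks. Of the LIMS partners, LIMS1 rose (log2 fold change 1.75) and LIMS2 fell by 1.8. Relative to the Sertoli genes described below, ILK (-3.22), PARVA (-0.72), LIMS2 (-4.06) and LIMS1 all lay under 0. FERMT2 (kindlin-2), which activates integrins beside talin, was at 93.5, 84.1 and 95.2 FPKM against 40.5, 35.7 and 40.8 FPKM, and rose by 1.20 (SE 0.10, limma adjusted p = 9.9e-06). FERMT1 (kindlin-1), its epithelial relative, was at 2.35, 2.61 and 2.27 FPKM against 0.991, 1.56 and 1.54 FPKM, a log2 difference of 0.54 that did not pass.

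How many genes rise depends on what the libraries are scaled to. With median-of-ratios scaling, which brings the median log2 fold change of all tested genes from 0.51 to 0.01, 11 of the 42 genes rose (17.7% of all tested genes did) and 10 fell (27.7% of all). LAMA2 (0.97), ITGA6 (0.97), ITGA9 (0.80), ITGB5 (0.60), FERMT2 (0.59) and ITGB2 (0.58) then lay under the threshold, and ILK (-1.57), ITGA5 (-1.44) and ITGA2B (-1.09) joined the lower genes. AGRN, LAMC3, NID1, LAMA1, ITGAV, LAMB1, LAMC1, ITGA8, PARVA, LAMB2 and ITGAD were higher on both scales.

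A second quantity set each gene against the 12 Sertoli genes of the same library, which lowered every log2 difference by the same amount, their mean log2 fold change of 2.26. Relative to them, 37 of the 42 genes lay below 0, as did 14422 of all 15042 tested genes. By the same thresholds 28 members were lower in cattle-yak and 0 higher, beside 74.6% lower and 0.186% higher of all tested genes. Of the members above 0, 1 had an unadjusted limma p under 0.05. It was AGRN, at 0.87 (limma adjusted p = 1.0e-04), under the fold threshold. LAMC3 (0.25), NID1 (0.23), LAMA1 (0.10) and ITGAV (0.02) were the other members at or above the Sertoli level, followed by LAMB1 (-0.24), ITGA8 (-0.34) and LAMC1 (-0.39). ITGA6 (-0.74), LAMB2 (-0.68) and LAMA2 (-0.76) lay between these and the threshold. ITGB2 (-1.21), ITGB5 (-1.06) and FERMT2 (-1.06), higher per library, were called lower relative to the Sertoli genes once that amount was taken off. The part of the cell makeup in these levels was not tested.

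**Figure D4:**
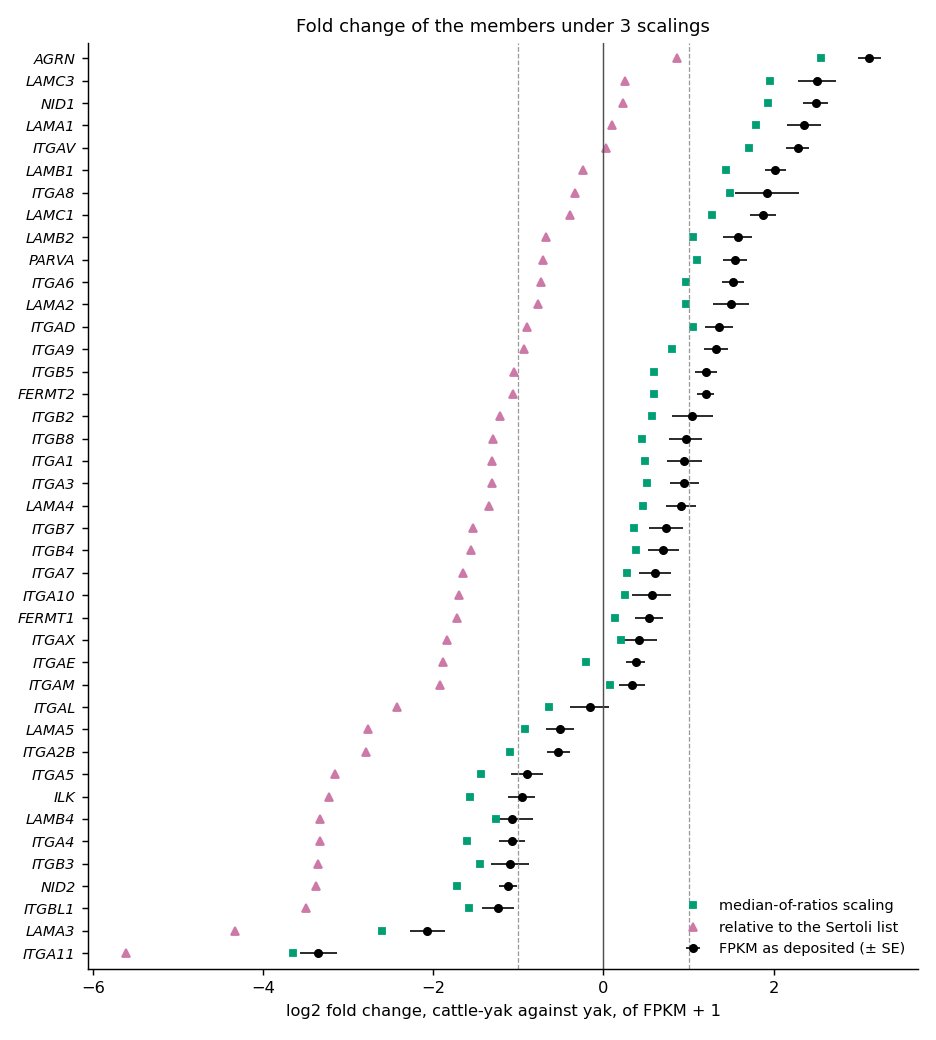
Log2 fold change of FPKM + 1, cattle-yak against yak, of the genes compared, in ascending order. Black points with bars give FPKM as deposited with the SE, green squares median-of-ratios scaling and pink triangles the difference relative to 12 Sertoli genes, and the dashed lines mark a log2 fold change of 1 in each direction. FPKM as deposited runs from ITGA11 (-3.35) to AGRN (3.12), and relative to the Sertoli genes 5 of the genes compared lie above 0. Of all 15042 tested genes, 620 do.

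Genes that work with these proteins were taken from lists made by function. Of 22 tested focal adhesion adaptors 15 rose and 2 fell, with a median log2 fold change of 1.57. That was 68.2% and 9.09%, beside 33.4% and 20.8% of all tested genes. SRC (2.79), the tetraspanin CD151 (2.67), which binds laminin-binding integrins, and paxillin (PXN, 2.63) rose most, and LIMS2 and SHARPIN (-1.24), an inhibitor of integrin activation, were those that fell. Of 23 tested laminin receptors other than integrins and other basement membrane genes 16 rose (69.6%) and 4 fell (17.4%), with a median of 1.91. The collagen IV chains COL4A4 (2.94) and COL4A5 (2.82) and the laminin α5 receptor BCAM (2.84) rose most. The dystroglycan-associated sarcoglycans SGCA (31.4 FPKM in yak, 2.20 in cattle-yak) and SGCD (28.7 and 3.63) fell by 3.34 and fell by 2.68, and SMOC1, a basement membrane calcium-binding protein, fell by 1.62. In the deposited annotation, the KEGG pathway of ECM-receptor interaction held 31 of the 45 genes. Its 39 other tested genes split 20 higher (51.3%) and 7 lower (17.9%), with a median of 1.29. The 148 other tested genes of the focal adhesion pathway split 77 higher (52%) and 14 lower (9.46%), with a median of 1.04. Relative to the Sertoli genes, 0 were higher in any of these lists. Lower were 8 of the 22 adaptors, 8 of the 23 receptor and basement membrane genes, 19 of the 39 and 78 of the 148. Of all 15042 tested genes, 0.186% were higher and 74.6% lower on this quantity, a larger lower share than in any of these lists.

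The cell type markers also differed between the groups, and their part in the levels of these genes was not tested. All 12 Sertoli, 7 myoid and 6 Leydig genes tested rose, as did 7 of 8 spermatogonial genes (median 1.89). These lists were chosen with earlier results of these data known. Among the study's own markers, WFDC2 (Sertoli) and IGFBP3 (Leydig) were named as exceptions to the rise. Of 7 spermatocyte genes 1 rose and none fell, with a median of 0.00, and all 4 round and 6 elongating spermatid genes fell, with medians of -5.63 and -7.77. Endothelial genes were split, with 3 of 7 higher and 1 lower, VWF, and a summed level of 32.1 to 54.2 FPKM against 29.7 to 34.7.

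**Figure D5:**
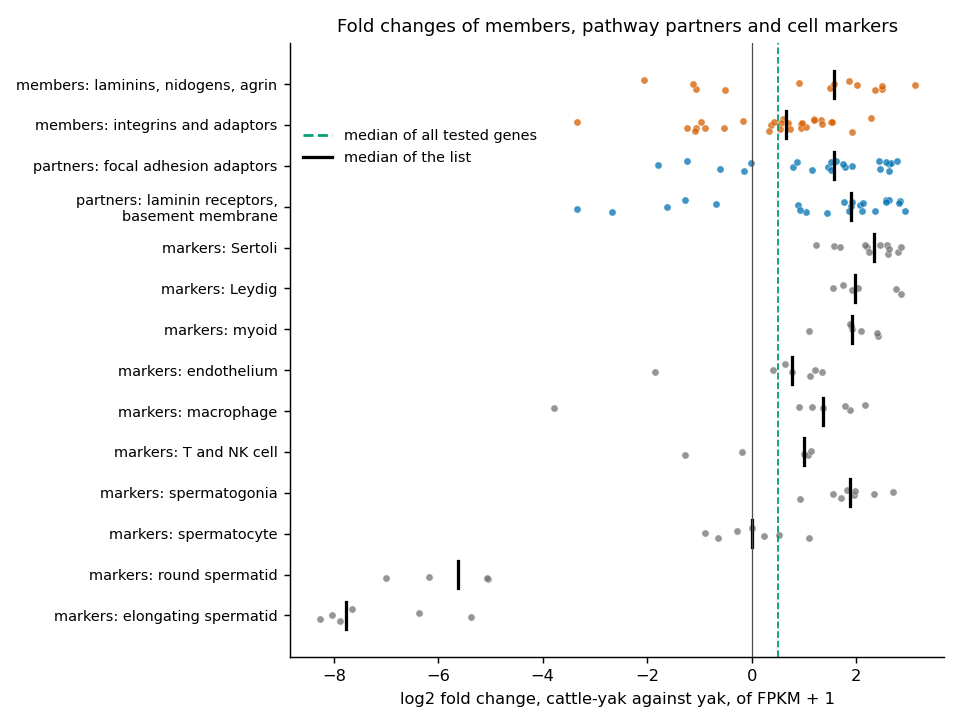
Log2 fold change of FPKM + 1, cattle-yak against yak, of each tested gene (1 point per gene, spread vertically for visibility) in the members (orange), the pathway partners (blue) and the cell type marker lists (grey). Black bars are list medians and the green dashed line is the median of all tested genes (0.51). Sertoli, Leydig, myoid and spermatogonial markers lie to the right of it and spermatid markers far to the left, and the members range from -3.35 (ITGA11) to 3.12 (AGRN).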

How the data were processed

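The deposited table gives FPKM per gene and animal, which by the methods the authors calculated with Cufflinks (the values are whole fragments over length and depth, so which tool gave them is uncertain) after trimming with Trimmomatic and mapping both groups with HISAT2 to the yak genome LU_Bosgru_v3.0 (tool versions are not given in the sources used here), beside GO and KEGG terms. No scaling between libraries is stated, nor whether a stranded setting was used, so reads of overlapping genes on opposite strands may be mixed. Whole fragments were recovered from steps in the FPKM values for 17973 of 18918 genes (99.998% of values within 0.03 of a whole number), which gave depth and model length.

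The 15042 genes that averaged 0.5 FPKM or more entered a two-sided limma fit (version 3.58.1, R 4.3.3; lmFit, then eBayes with a mean-variance trend) on log2(FPKM + 1) with no covariates. A change was called where p, adjusted over all of these genes by Benjamini-Hochberg, was under 0.05 and the log2 fold change exceeded 1 in size. The same test was run after subtracting the mean of 12 Sertoli genes in each library. Shares and sums were compared with exact permutation tests over the assignments of animals. The recovery and the limma step were checked on simulated data. In the limma simulation few genes changed, as many up as down. It therefore does not show how the fit behaves when as many genes change as here. Alternatives were other pseudocounts, filters and scalings, TPM, limma with a robust prior or no trend, voom on recovered fragments, and leaving out each animal.

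Every gene the symbol rule found is given, except 1 that is counted but not reported here. Values per animal are given for called genes and for the classes that hold one, and from the partner lists the 3 widest called changes in each direction are named, with LIMS1, VWF, AIF1 and CD247 added after their values were seen. The members and lists were chosen with earlier results of these data known. Replicates are separate animals. Depth limits low genes, and intervals on fragments cover counting error only. No sequence is shown, since no yak reference was used here.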

Additional observations from a re-analysis of the deposited data

How the results depend on the processing

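The counts moved most with scaling, thresholds and, for the higher genes, the pseudocount or a voom fit. The 17 higher genes became 11 with median-of-ratios scaling, 0 relative to the Sertoli genes and 27 with no fold threshold. The 7 lower genes became 28 relative to the Sertoli genes, 4 with a minimum of 5 FPKM, where fewer genes are tested, and 11 with no fold threshold. Leaving out 1 animal gave 17 to 20 higher and 4 to 8 lower genes, the 4 without Yak8 and 5 without TES5. The other settings gave 13 to 25 higher genes and 7 to 10 lower ones. The higher genes were 25 with voom on fragments and 24 with a pseudocount of 0.1 or 0.01 in place of 1. The median log2 fold change of all tested genes also moved, from 0.51 to 0.63 with voom and to 0.62 and 0.64 with these pseudocounts. The share of all tested genes called was counted only for the main fit, median-of-ratios scaling and the Sertoli genes. At the other settings the counts therefore cannot be set against all genes. Of 608 single-gene values over the 15 settings other than the Sertoli genes and the fold threshold, 554 kept their direction and their side of the threshold, 11 fell under it, 41 passed it and 2 changed sign: ITGAE (-0.20 with median-of-ratios scaling) and ITGAL (0.046 without TES5, the lowest value being -0.33 over the animals left out). Relative to the Sertoli genes, 24 of the 29 genes above 0 fell below it. Of all 15042 tested genes, 9485 lay above 0 in the main fit and 620 relative to the Sertoli genes. The cause of these changes was not tested, except that the Sertoli quantity takes the same amount off every gene. Without 1 animal, the group difference in share changed sign for LAMB2 (-0.92 to 0.29 percentage points) and ITGB2 (0.57 to -0.58), both without Yak10, and for ITGA2, ITGB7 and ITGB8, all shares whose groups overlapped. Each symbol stood on 1 row, so taking only the most abundant row changed nothing. No paired analysis was possible because the labels number the animals 5 to 7 and 8 to 10, with no number in both groups and no sign of pairs. Depth limits ITGA11, LAMB4, LAMB3 and ITGB6, whose cattle-yak values rest on 0 to 24 fragments per animal. It also limits ITGB3 and ITGBL1 (9 to 32 in cattle-yak) and ITGA8 (4 to 26 in yak). The same holds for ITGAD (24 to 33 in yak) and ITGAX (8 to 26 in yak), among other low genes.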
